A study of Mus musculus with 2 samples.

Results

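The 10 genes described here encode heat shock proteins and chaperones, and were followed across the cell types of the caudal mouse embryo. They are Hspb1, Hspa1a, Hspa1b, Hspa5, Hspa8, Hsp90aa1, Hsp90ab1, Hspd1, Hspe1 and Dnajb1, chosen by name, and they are 10 of the 24543 genes in the count tables. The cells were CD31+CD44+ cells sorted from the caudal region of C57BL/6 embryos at embryonic day 10 and measured by 10x single-cell RNA sequencing. The study compared Vec-Cre;Nupr1fl/fl embryos (cKO), in which Cre driven by an endothelial promoter deletes Nupr1, with littermate Nupr1fl/fl and Nupr1fl/+ embryos as controls, which carry the floxed allele too and bear the hashtag label WT. There were 2 replicates, each 1 pool of hashtagged cells of both genotypes, so that cells fell into 4 libraries by genotype and replicate. How many embryos each pool held is not given in the sources used here, and embryos cannot be told apart within a library.

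Chaperones bind unfolded or newly made proteins and help them to fold, to assemble or to be degraded. In the cytosol, Hsp70 proteins bind short hydrophobic stretches and release them with ATP, J proteins such as Dnajb1 bring them their clients, and Hsp90 proteins finish the folding of kinases and transcription factors. Hspa1a, Hspa1b, Hspb1 and Dnajb1 are classic targets of the heat shock factor Hsf1 and rise when proteins unfold, whereas Hspa8 and Hsp90ab1 are made constantly in all cells. Mitochondria have their own chamber, formed by Hspd1 (Hsp60) and its lid Hspe1 (Hsp10), and the endoplasmic reticulum has Hspa5 (BiP), which answers to the unfolded protein response. Endothelial cells of the dorsal aorta turn into blood cells at this age, a step called the endothelial-to-hematopoietic transition (EHT).

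Heat shock elements are built from inverted repeats of the unit GAA, and promoter sequences of 5 of the 10 genes are shown because these genes are known to be induced through such elements or, for Hspa5, through the stress element of the endoplasmic reticulum. RefSeq (GRCm38.p6) gave promoter windows of 300 bases, from 250 before to 50 after the start site, for 7 of the 10 genes; Hspa8, Hsp90aa1 and Hsp90ab1 had none. Capitals mark the paired units GAANNTTC in Hspa1a (chr17:34972157-34972306, minus strand), Hspa1b (chr17:34959239-34959388, minus strand) and Hspb1 (chr5:135887769-135887918, plus strand), shown over the 150 bases before each start site. In Hspe1 (chr1:55088053-55088082, plus strand) and Hspa5 (chr2:34772019-34772048, plus strand), 30 bases around the element are shown. Capitals in Hspe1 mark the longer element GAANNTTCNNGAA, which is present on both strands and contains the paired units, and in Hspa5 the endoplasmic reticulum stress response element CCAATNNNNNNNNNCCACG, which contains a CCAAT box.
Hspa1a: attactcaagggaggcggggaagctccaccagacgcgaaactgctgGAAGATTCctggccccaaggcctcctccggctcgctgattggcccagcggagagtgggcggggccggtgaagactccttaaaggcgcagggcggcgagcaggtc
Hspa1b: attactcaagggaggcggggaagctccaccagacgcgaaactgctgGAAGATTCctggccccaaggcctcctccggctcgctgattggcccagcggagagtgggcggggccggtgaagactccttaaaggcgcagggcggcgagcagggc
Hspb1: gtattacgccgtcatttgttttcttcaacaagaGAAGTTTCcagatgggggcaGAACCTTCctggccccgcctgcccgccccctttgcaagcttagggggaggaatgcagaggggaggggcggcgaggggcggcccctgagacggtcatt
Hspe1: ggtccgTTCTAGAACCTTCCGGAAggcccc
Hspa5: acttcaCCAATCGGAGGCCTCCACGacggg

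Each motif was searched on both strands of all 32851 promoter windows. The element GAANNTTCNNGAA was found in 0.603% of them, and among the 10 genes in Hspd1 and Hspe1, which lie head to head, so that 1 site serves as the match in both windows. The shorter GAANNTTC, searched after the longer one had been seen to be missing from Hspa1a and Hspb1, was found in 7.86% of all promoters. It lay 104 bases before the start site in Hspa1a and Hspa1b, and 117 and 97 bases before it in Hspb1. The stress response element of the endoplasmic reticulum was found in 0.119% of promoters and, among the 10 genes, in Hspa5, 65 bases before the start site. These are matches of letters, not measured binding sites. Neither heat shock pattern was matched in the windows of Dnajb1 or Hspa5.

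The genes lie on 7 chromosomes of GRCm38 in the GENCODE M21 annotation. Hspa1b (17:34956436-34959238) and Hspa1a (17:34969190-34972156) are neighbors on the minus strand, 9951 bases apart, and Hspd1 (1:55077835-55088243, minus strand) overlaps Hspe1 (1:55088132-55091307, plus strand) by 112 bases. The others are Hspb1 (5:135887919-135889563), Hspa5 (2:34771970-34777547), Hspa8 (9:40800984-40810087), Hsp90aa1 (12:110690605-110702728), Hsp90ab1 (17:45567775-45573271) and Dnajb1 (8:83608193-83612653). The coding sequences of Hspa1a and Hspa1b are 99.5% identical, while the last 300 bases of their transcripts, where a 3′ method reads, are 62.3% identical. Reads from the coding sequence could be assigned to either of these 2 genes, and how far this occurred was not tested. The overlap of Hspd1 and Hspe1 lies at their 5′ ends, away from the ends that a 3′ method reads. The study states that Cell Ranger was run with default mapping arguments, and it does not name the strand setting of the counting.

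Cells were placed in groups by marker genes that are not among the 10. A gate needed at least 1 UMI (a counted molecule) of each of its markers and a marker sum of at least 1 per 10000 UMIs. The gates were Gja5 for arterial endothelium, Kitl and Esm1 for plexus endothelium, Gfi1 and Neurl3 for EHT cells, Ptprc and Myb for progenitors, Mpo and Fcgr3 for myeloid cells, C1qa for macrophages and Gp9 for megakaryocytes. Of 2139 cells, 1858 were placed: 403 arterial, 97 plexus, 108 EHT, 109 progenitor, 292 myeloid, 624 macrophage and 225 megakaryocyte cells. There were 502 cells that met several gates and went to the later stage or lineage, and 281 met none. No cell barcode was shared by the replicates.

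The names were checked with markers that the gates did not use. The summed level of 4 endothelial genes (Cdh5, Cldn5, Kdr, Emcn) was 2699 to 3534 CPM (UMIs per 1000000 UMIs of a library's cells in a group) in arterial sums, 852 to 1253 in EHT sums and 4.11 to 20.3 in macrophage sums, and EHT genes such as Runx1 and Spi1 summed to 1012 to 1189 in EHT sums against 252 to 277 in arterial sums. The same EHT genes stood at 874 to 1074 in progenitor sums, which overlap the EHT sums, and at 645 to 745 in myeloid sums. They therefore do not set EHT cells apart from progenitors. Plexus and progenitor markers went against the names. Plexus genes (Apln, Aplnr, Plvap, Nr2f2) summed to 746 to 1229 in the plexus group, no more than the 996 to 1587 of the arterial group, and 65 of the 97 plexus cells also met the arterial gate, so this group is best read as the Kitl+Esm1+ endothelium. Progenitor genes (Spn, Itga2b, Gata2, Kit) summed to 139 to 287 in the progenitor group and to 140 to 263 in EHT cells, and that group is best read as the Ptprc+Myb+ cells. Megakaryocyte sums also carried 846 to 2871 CPM of 4 erythroid genes, against at most 310 in any other sum, and the part of these in the values below was not tested.

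UMIs were summed over the cells of 1 group in 1 library, for each sum of at least 10 cells, which gave 26 sums. Levels are given as CPM, the UMIs of a gene per 1000000 UMIs of the sum. Values are listed in the order control replicate 1, control replicate 2, cKO replicate 1 and cKO replicate 2, and means are over these sums ± SD (n = 4 unless stated). The study calls the replicates independent, and p-values measure the spread between these sums. Megakaryocytes gave 2 sums, both of replicate 2. Libraries held 14981582, 45473589, 17448703 and 46037450 UMIs, with medians of 38416.5 to 62116 UMIs per cell, and the mitochondrial share was 2.32% to 2.59% in replicate 1 and 1.10% to 1.11% in replicate 2. Nupr1, the deleted gene, was at 59.2 and 45.2 CPM in control EHT sums and at 2.31 and 1.35 in cKO EHT sums. Xist was at 417, 257, 4.24 and 144 CPM in the 4 libraries, so the sexes of the embryos differed between pools and genotypes. Whether that bears on any gene below was not tested.

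The 10 genes together took a larger part of the RNA in blood and EHT cells than in endothelium. They made up 0.934% to 1.02% of UMIs in arterial sums and 0.840% to 0.968% in plexus sums. The part was 1.62% to 2.03% in EHT cells, 1.92% to 2.31% in progenitors, 1.79% to 2.05% in myeloid cells, 1.37% to 1.65% in macrophages and 1.96% to 1.99% in megakaryocytes. No sum of the endothelial groups reached the lowest sum of any other group. The genes differed in how far they spread: over the 6 groups with sums from all 4 libraries, the highest group mean was 24.1 times the lowest for Hspa1a and 21.3 times for Hspa1b, 6.62 times for Hspb1 and 5.74 times for Dnajb1, but 1.87 times for Hspa8 and 1.65 times for Hsp90ab1. Megakaryocytes, present in replicate 2 only, were left out of this ratio, since replicate 2 had more Hspa1a and Hspa1b in each of these 6 groups.

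**Figure D1:**
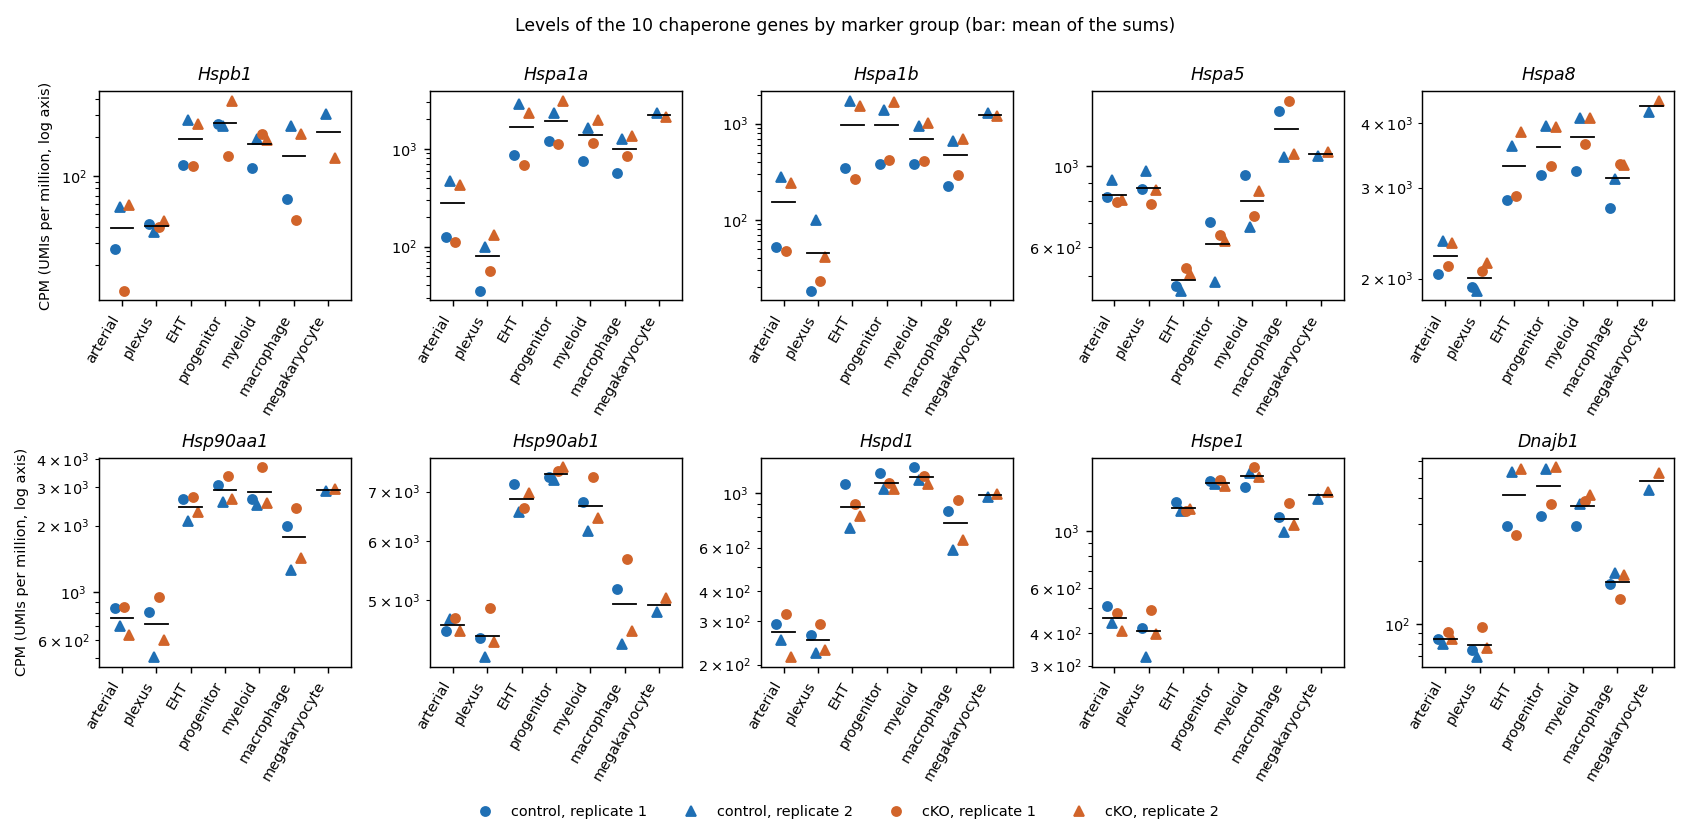
Level of each of the 10 genes in CPM (log axis) in 7 groups of cells; each point is 1 sum of cells, blue for control and orange for cKO, circles for replicate 1 and triangles for replicate 2, and the bar is the mean. Most genes sit lowest in the arterial and plexus groups, Hspa5 sits lowest in EHT cells and highest in macrophages, and the triangles of Hspa1a and Hspa1b sit above the circles.

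Hspa1a and Hspa1b, which encode the inducible Hsp70, were lowest in the plexus group. Hspa1a was at 127, 465, 111 and 423 CPM in arterial cells, at 35.2, 99.5, 55.7 and 132 in plexus cells, and at 873, 2894, 688 and 2314 in EHT cells. The EHT sums did not overlap with either endothelial group, and within every group the values of replicate 2 were above those of replicate 1. Hspa1a stood at 1941 ± 960 in progenitors, 1375 ± 532 in myeloid cells and 1004 ± 362 in macrophages, and these groups and EHT cells overlapped. Hspa1b had a mean of 45.6 ± 37.3 in plexus cells, 154 ± 121 in arterial cells and 966 ± 769 in EHT cells. The megakaryocyte sums, both of replicate 2, were at 2349 and 2130 for Hspa1a and at 1290 and 1198 for Hspa1b, and within the 2 libraries these were 1.01 and 0.684 times the progenitor level for Hspa1a and 0.933 and 0.706 times for Hspa1b.

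Hspb1 encodes Hsp27, a small heat shock protein that holds unfolded proteins without ATP and binds to the actin skeleton. It was at 26.8, 57.0, 12.5 and 59.5 CPM in arterial cells and at 42.2, 36.1, 39.4 and 44.3 in plexus cells. In EHT cells it was at 123, 275, 120 and 254, above every endothelial sum. Progenitors had a mean of 258 ± 100, EHT cells of 193 ± 83.1, myeloid cells of 179 ± 43.8 and macrophages of 142 ± 101, and all of these overlapped. The 2 megakaryocyte sums of replicate 2 were at 303 and 138, and within their libraries at 1.23 and 0.357 times the progenitor level. One of the macrophage sums, of cKO replicate 1, was at 44.9, within 1 unit of the highest plexus sum.

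Dnajb1, the J protein that serves inducible Hsp70, was at 84.2, 79.8, 91.0 and 85.1 CPM in arterial cells. Its plexus mean was 79.2 ± 11.9, and the 2 groups overlapped. It was at 295, 531, 267 and 552 in EHT cells, with both replicate 2 values above both replicate 1 values, and at 454 ± 120 in progenitors, 367 ± 51.6 in myeloid cells and 436 and 528 in the megakaryocyte sums of replicate 2. Macrophages lay between these and the endothelium, with 156, 176, 131 and 172, and overlapped with neither neighbor in the order.

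Of the Hsp90 pair, Hsp90aa1 is the inducible form and Hsp90ab1 the constant one. Hsp90aa1 was at 842, 696, 851 and 635 CPM in arterial cells, at 2648, 2100, 2691 and 2299 in EHT cells and at 3058, 2572, 3351 and 2645 in progenitors. The arterial and EHT sums stood far apart, and in each of these groups the replicate 2 values were below those of replicate 1. Hsp90aa1 was at 1771 ± 531 in macrophages and 2841 ± 574 in myeloid cells. Hsp90ab1 was steadier, with 4630 ± 104 in arterial cells, 6838 ± 286 in EHT cells and 7396 ± 136 in progenitors, whose lowest sum lay above the highest EHT sum, and it fell back to 4935 ± 604 in macrophages.

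Hspa8, the constant Hsp70 that also strips clathrin from vesicles, was at 2043, 2363, 2113 and 2342 CPM in arterial cells and at 2839, 3610, 2889 and 3852 in EHT cells. Its highest values were in the megakaryocyte sums of replicate 2, 4200 and 4418, above every myeloid sum. In the mitochondrial pair, Hspd1 was at 294, 251, 323 and 214 in arterial cells and at 1089, 721, 901 and 803 in EHT cells, and Hspe1 was at 512, 439, 481 and 410 and at 1291, 1197, 1199 and 1215. Both were highest in myeloid cells, at 1167 ± 81.2 for Hspd1 and 1637 ± 121 for Hspe1, and neither was separated there from progenitors, at 1098 ± 79.3 and 1543 ± 40.6.

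Hspa5 had an order of its own. It was at 823, 914, 796 and 806 CPM in arterial cells and at 469, 455, 526 and 505 in EHT cells, the lowest group. It was at 613 ± 94.5 in progenitors, 804 ± 120 in myeloid cells and 870 ± 75.2 in plexus cells, and at 1066 and 1093 in megakaryocytes. Macrophages had the highest mean, 1267 ± 233, with 1419, 1056, 1512 and 1080. The arterial and EHT sums did not overlap, nor did those of EHT cells and macrophages.

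Groups were compared with edgeR's quasi-likelihood test on the sums, with the library as a block and Benjamini-Hochberg adjustment over 11258 genes, at a threshold of 0.05. Between EHT and arterial cells, which addresses the change from endothelium toward blood, 9 of the 10 genes were significantly higher in EHT cells and Hspa5 was significantly lower. Many genes differed in this comparison: 22.9% of all genes tested were higher and 20.2% lower. The median log2 fold change was 1.80 for the 10 genes and 0.04 for all genes. Each of the 10 calls held under all 16 settings tried. The sum of 12 immediate-early genes, which respond to many stimuli, also went up from arterial to EHT cells in each library, from 2898 to 3580, 3705 to 5391, 2815 to 3830 and 4325 to 6622 CPM, and its part in the result was not tested.

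The largest log2 fold changes from arterial to EHT cells were those of Hspa1b (2.73, SE 0.23, adjusted p = 4.91e-08) and Hspa1a (2.72, SE 0.22, adjusted p = 3.24e-08). Within each library, Hspa1a was 5.46 to 6.90 times higher in EHT cells, a narrow range beside the ratio of 3.32 to 3.82 between the replicates in these groups. Hspb1 (2.43, SE 0.43, adjusted p = 0.000187) and Dnajb1 (2.33, SE 0.18, adjusted p = 8.43e-09) came next, with ratios of 4.27 to 9.58 and 2.93 to 6.65 within libraries. Hspd1 rose by 1.81 (SE 0.08), Hsp90aa1 by 1.80 (SE 0.09) and Hspe1 by 1.52 (SE 0.08). The constant Hspa8 and Hsp90ab1 rose least, by 0.68 (SE 0.06) and 0.67 (SE 0.05), and Hspa5 fell by 0.67 (SE 0.10, adjusted p = 9.24e-06).

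**Figure D2:**
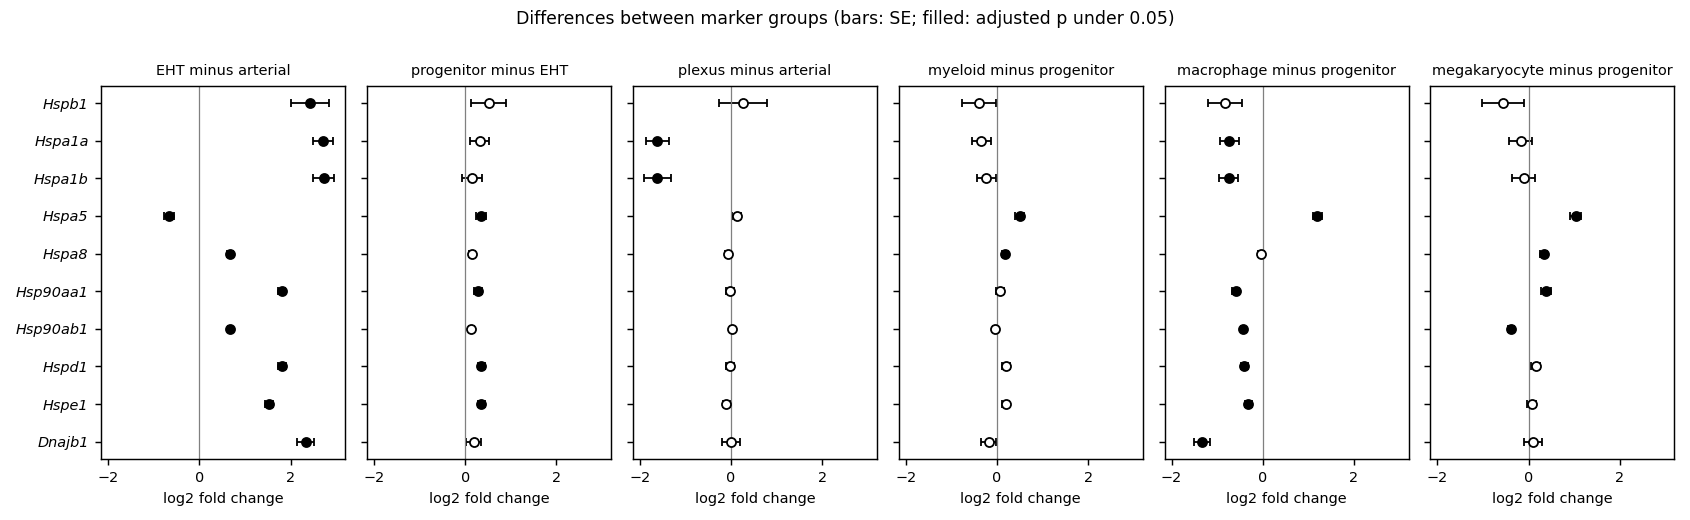
Log2 fold change of the 10 genes in 6 comparisons of groups, with bars for the SE, and filled points for an adjusted p under 0.05. In EHT minus arterial, 9 points lie right of 0 and Hspa5 left of it, at -0.67; in macrophage minus progenitor, Hspa5 lies right, at 1.20, and 7 genes are called lower.

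From EHT cells to progenitors the changes were small. Hspd1 (0.36, SE 0.08, adjusted p = 0.00283), Hspe1 (0.35, SE 0.08, adjusted p = 0.00261), Hspa5 (0.35, SE 0.10, adjusted p = 0.0216) and Hsp90aa1 (0.28, SE 0.08, adjusted p = 0.0235) were higher in progenitors and none was lower, where 7.73% of all genes were called higher and 9.03% lower. Hspb1 (0.51, SE 0.38) and Hspa1a (0.32, SE 0.20) did not pass the test. Only 1 of the 4 calls was left when cells that met several gates were left out, and none with control cells alone. Without cKO replicate 2 there was 1, and without control replicate 1 there were 2.

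The step from arterial cells to progenitors was then divided by the gates that cells met, a division made after the values above were seen and given without a test. There were 403 cells with the arterial gate alone, 45 with the EHT and arterial gates, 63 with the EHT gate without the arterial or a later gate, 51 with the EHT and progenitor gates and 58 with the progenitor gate without EHT. Cdh5, an endothelial adhesion gene, fell along these steps from 1054 ± 57.3 to 649 ± 86.9, 268 ± 77.5, 248 ± 66.8 and 54.6 ± 22.2 CPM. Sums in the second step held 9 to 15 cells, and those of EHT cells without the arterial gate 7 to 20.

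Among EHT cells, those that met the arterial gate had other levels of several of the 10 genes than those below it. The gate is a threshold: 46.0% of the EHT cells below it still had a Gja5 UMI, at 20.3 ± 14.2 CPM. Dnajb1 was at 101, 113, 200 and 117 CPM in EHT cells with the arterial gate, above the 84.2, 79.8, 91.0 and 85.1 of arterial cells in each library. It was at 361, 748, 323 and 875 in EHT cells without the arterial gate. Hspb1 was at 0, 174, 48.1 and 9.51 with the arterial gate and at 165, 327, 181 and 435 without it. The value of 0 is no UMI in 9 cells. Hspa1a was at 447, 1864, 501 and 1113 with the arterial gate, also above the arterial cells in each library, and reached 1019, 3428, 845 and 3204 without it. All 4 libraries moved the same way in each of these steps for Hspa1a and Dnajb1, and between the EHT subsets for Hspb1.

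Hspd1 was at 866, 464, 787 and 577 CPM in EHT cells with the arterial gate and at 1166, 854, 996 and 971 without it, against 270 ± 47.6 in arterial cells. Hsp90aa1 went from 1745, 1212, 2430 and 983 to 2958, 2561, 2910 and 3275. Both genes thus stood above the arterial level in the first EHT subset and higher again in the next one. Hspa5 was at 482, 596, 615 and 488 in the first EHT subset, 453 ± 56.0 in the next, 499 ± 82.0 with the EHT and progenitor gates and 718 ± 110 in progenitors without the EHT gate, so that its low lay in the middle of the series.

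**Figure D3:**
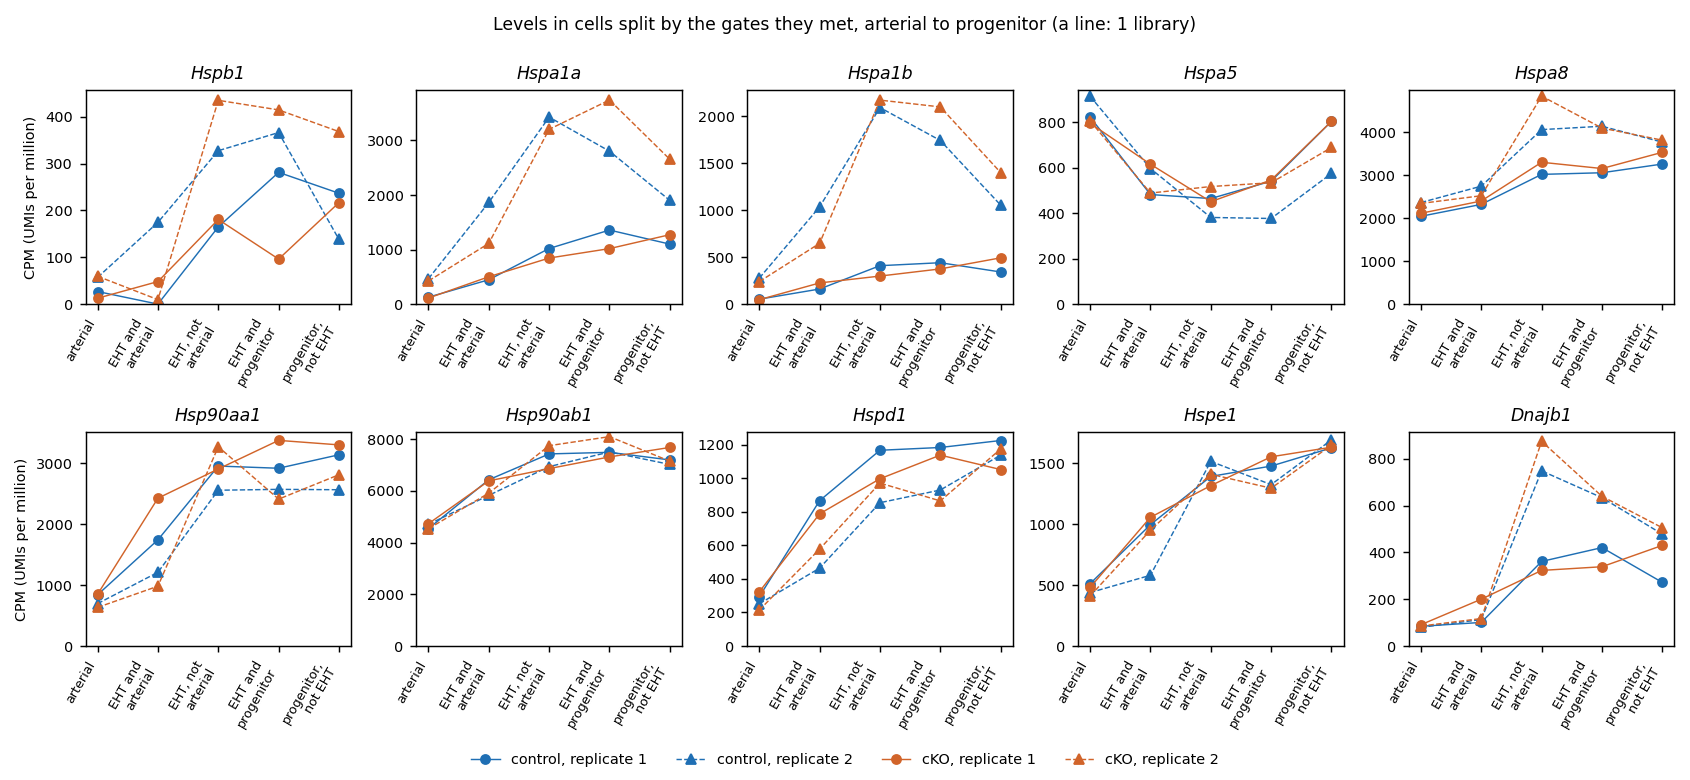
Level of each gene in CPM in cells split by the gates they met, from arterial cells on the left to progenitors without the EHT gate on the right; each line is 1 library, blue for control and orange for cKO, solid for replicate 1 and dashed for replicate 2. Dnajb1 is at 101 to 200 in EHT cells that keep the arterial gate and at 323 to 875 in the next step, whereas Hspa5 falls and then rises in progenitors.

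Between the 2 endothelial groups, Hspa1a (log2 fold change -1.62, SE 0.25, adjusted p = 0.000249) and Hspa1b (-1.62, SE 0.29, adjusted p = 0.000869) were lower in plexus than in arterial cells, and none was higher, with 6.24% of all genes lower and 8.62% higher. The lower value was seen in each library, with Hspa1a in plexus cells at 0.214 to 0.503 of the arterial level. Neither call held when cells that met several gates were left out, which removed most plexus cells, or without the library block. The other 8 genes had log2 fold changes between -0.10 and 0.26.

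Among blood lineages, macrophages differed most from progenitors. Hspa5 was significantly higher in macrophages (1.20, SE 0.10, adjusted p = 3.71e-10) and 7 genes were significantly lower, where 23.8% of all genes were higher and 29.6% lower. Dnajb1 was lowest (-1.33, SE 0.17, adjusted p = 2.26e-06), followed by Hspa1b (-0.75, SE 0.21), Hspa1a (-0.73, SE 0.20), Hsp90aa1 (-0.59, SE 0.08), Hsp90ab1 (-0.43, SE 0.05), Hspd1 (-0.41, SE 0.08) and Hspe1 (-0.31, SE 0.08). Hspb1 (-0.83, SE 0.37, adjusted p = 0.0696) and Hspa8 (-0.04, SE 0.06) did not pass. Hspa1a and Hspa1b lost their calls without cKO replicate 2 (adjusted p = 0.117 and 0.0613) and without the library block (0.290 and 0.378).

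Myeloid cells were close to progenitors in these genes. Hspa5 (0.50, SE 0.10, adjusted p = 0.000495) and Hspa8 (0.17, SE 0.06, adjusted p = 0.0355) were higher and none was lower, with 14.3% of all genes higher and 19.3% lower. This count moved between 0 and 5 with the settings. In megakaryocytes, Hspa5 (1.04, SE 0.12, adjusted p = 1.25e-07), Hsp90aa1 (0.38, SE 0.10) and Hspa8 (0.33, SE 0.08) were higher than in progenitors and Hsp90ab1 (-0.38, SE 0.06) was lower, with 22.6% of all genes higher and 29.5% lower. The median of all genes was -0.12 in that comparison, so that relative to it the first 3 stand a little higher and Hsp90ab1 a little less low. The Hsp90aa1 call was lost with a marker sum of 0.5 (adjusted p = 0.249), with cells thinned to 6000 UMIs (0.0639) and without the library block (0.420). The Hspa8 call was lost with a marker sum of 0.5 (0.0769). Within the 2 libraries, CPM was 1.12 and 1.11 times the progenitor level for Hsp90aa1 and 1.06 and 1.12 times for Hspa8.

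Progenitor, myeloid and macrophage cells, as 1 mean, were compared with arterial and plexus cells. All 10 genes were higher in this mean of the blood groups, where 40.3% of all genes were higher and 35.7% lower. Hspa1a had a log2 fold change of 3.49 (SE 0.16), Hspa1b of 3.36 (SE 0.17), Hspb1 of 2.40 (SE 0.30), Hspd1 of 2.11 (SE 0.06) and Dnajb1 of 2.01 (SE 0.13). Hspa5 stood apart with 0.18 (SE 0.07, adjusted p = 0.0144). Its progenitor sums, at 480 to 702 CPM, lay below every arterial and plexus sum. Its myeloid mean of 804 lay below both endothelial means. Of these blood groups, only macrophages, at 1056 to 1512, had a higher mean than the endothelial groups. This call for Hspa5 was lost with DESeq2 (0.11, adjusted p = 0.132), and its sign turned when all cells were thinned to 6000 UMIs (-0.03, adjusted p = 0.794). It was also lost with RLE scaling, without the low-count filter and with control cells alone. Leaving out control replicate 1 or cKO replicate 1 removed it too.

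Within groups, cells differed in how evenly they carried these RNAs. The cells of each library and group were thinned to 6000 UMIs, which left out 31 cells, and the variance of the UMI number was divided by its mean in 24 sets of at least 20 cells. A value near 1 is what random sampling of equal cells gives. The median was 5.55 for Hspa1a, 3.93 for Hspb1 and 3.37 for Hspa1b, but 1.77 for Hspd1 and for Dnajb1. This ratio can itself rise with a gene's level. It was 2.44 for Hspa8 and 2.43 for Hsp90ab1, above that of Dnajb1. The share of UMIs in the cells with most UMIs, given next, also depends on a gene's level and is no measure of evenness alone. In plexus cells of control replicate 1, Hspb1 had 0.095 UMIs per cell and a ratio of 0.95, yet a share of 100%. Hspa1a and Hspa1b also reached 100%, in 2 sets each. By this share Dnajb1 ranks as less even than Hspa1a, the reverse of the ratio. For Hspb1, the tenth of cells with most UMIs held 73.9% of all its UMIs in the median set, and in 4 sets all of them, against 41.7% for Dnajb1, 32.5% for Hspa1a and 16.1% for Hsp90ab1.

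From endothelial to EHT cells and progenitors, shares of cells with a UMI of Hspa1a and Hspb1 rose as their levels did. At 6000 UMIs, Hspa1a was detected in 34.8% of arterial cells (exact binomial 95% interval 30.1 to 39.8), 21.6% of plexus cells (13.9 to 31.2), 73.1% of EHT cells (63.8 to 81.2) and 93.5% of progenitors (87.1 to 97.4). Before thinning, these shares were 51.9%, 50.5%, 86.1% and 99.1%, at median depths of 23815, 34936, 44701.5 and 66569 UMIs. Hspb1 was detected in 11.1% of arterial cells (8.14 to 14.6), 27.8% of EHT cells (19.6 to 37.2) and 51.9% of progenitors (42.0 to 61.6), and unthinned in 21.3%, 42.6% and 73.4%. Across all groups the shares did not follow the levels. At 6000 UMIs, Hspa1a was detected in 82.7% of macrophages and 93.8% of myeloid cells, above the share in EHT cells. Its mean was nevertheless higher in EHT cells (1692 CPM) than in macrophages (1004) and myeloid cells (1375). The intervals cover counting error only. Since chaperones are made in every cell, no group could serve as a measure of free RNA in the droplets.

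**Figure D4:**
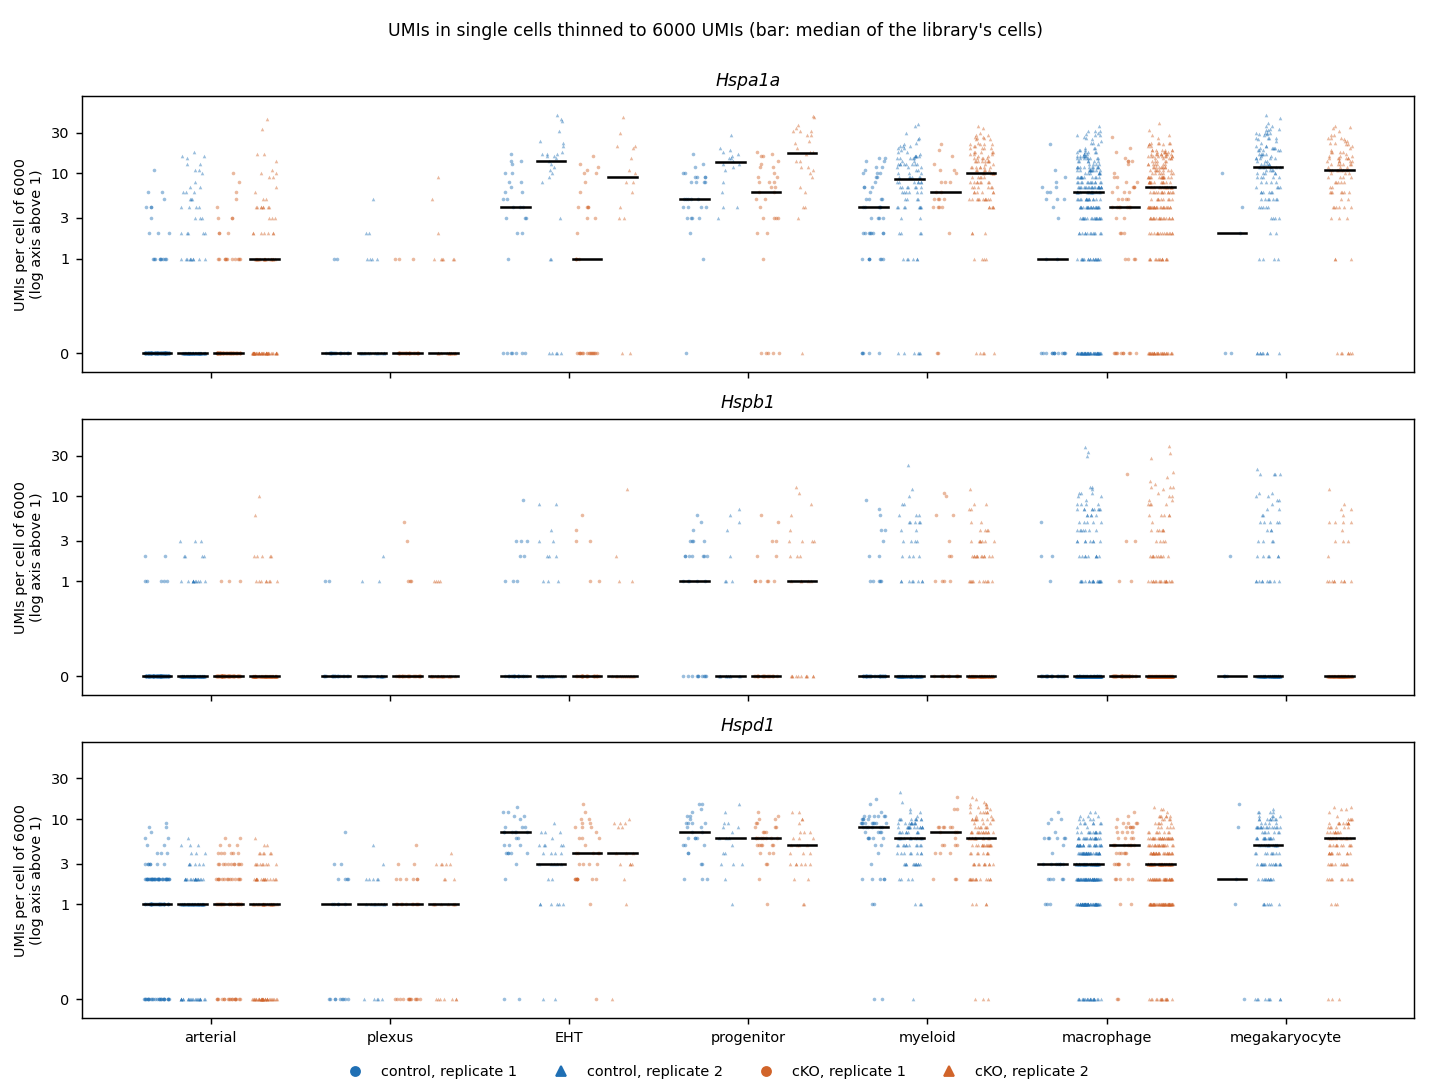
UMIs of Hspa1a, Hspb1 and Hspd1 in single cells thinned to 6000 UMIs (log axis above 1); each point is 1 cell, blue for control and orange for cKO, circles for replicate 1 and triangles for replicate 2, and the bar is the median of the library's cells. Hspb1 is at 0 in most cells of most libraries while single cells reach up to 39, whereas Hspd1 is spread over nearly all EHT and blood cells; the 6 megakaryocytes of control replicate 1 are drawn here but were in no sum.

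From cell to cell, Hspa1a and Hspa1b went together. Their Spearman correlation over cells within a set had a median of 0.620 over the 24 sets, and that of Hspa1a with Jun, an immediate-early gene, a median of 0.456. It was 0.326 for Hspa1a with Hsp90aa1, 0.255 with Dnajb1, 0.008 with Hspa5 and -0.070 with the proliferation gene Mki67. These are descriptions, since cells of a set share a library and reads of Hspa1a and Hspa1b may be exchanged.

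Over the 26 sums, which share libraries, the genes were also compared with every other gene tested by the Pearson correlation of log2(CPM + 1). The 3 most alike were Trmt112 (r = 0.951), Jun (0.943) and Hmgn2 (0.929) for Hspa1a, Trmt112, Hmgn2 and Jun for Hspa1b, and Rpl19 (0.910), Rps2 and Selenbp1 for Hspb1. They were Dkc1 (0.963), Cct6a and Anp32b for Hsp90aa1, Anp32b (0.977), Dkc1 and Timm8a1 for Hspd1, Rsl1d1 (0.984), Anp32b and Pa2g4 for Hspe1, and Cnbp (0.958), Suclg1 and Snhg1 for Dnajb1. Hspa8 went with Ndufab1 (0.968), Nudt5 and Hmgn2, and Hsp90ab1 with Myb (0.950), Irak3 and Hnrnpc. Hspa5 went with Tmsb4x (0.873), Hsp90b1 (0.871), which encodes the Hsp90 of the endoplasmic reticulum, and Bmp2k, and its correlation with the other 9 genes was between -0.62 and -0.16. Among the 10, Hspd1 and Hspe1 (0.988) and Hspa1a and Hspa1b (0.981) were most alike.

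The 2 replicate pools differed in Hspa1a, Hspa1b, Hsp90aa1 and Hspd1 in every group with 4 sums. Hspa1a and Hspa1b were higher in both replicate 2 sums than in both replicate 1 sums in 6 of 6 groups, which held for 2.92% of all genes. Within genotypes, the ratio of replicate 2 to replicate 1 was 1.60 to 3.82 for Hspa1a and 1.80 to 5.74 for Hspa1b. Hsp90aa1 and Hspd1 went the other way and were lower in replicate 2 in 6 of 6 groups, as were 6.01% of all genes, with ratios of 0.590 to 0.941 for Hsp90aa1. So the inducible genes did not move together between pools. Hspa8 was higher in replicate 2 in 4 groups, Dnajb1 in 3 and Hspb1 in 3. Hspe1 was lower in replicate 2 in 4 groups, Hsp90ab1 in 3 and Hspa5 in 2. For these smaller counts no share of all genes was taken. The sum of the 12 immediate-early genes was higher in both replicate 2 sums in EHT and arterial cells but not in every group. In plexus cells, control replicate 2 was at 2503 and control replicate 1 at 2773 CPM, and in progenitors control replicate 2 was at 4449 and cKO replicate 1 at 5149. The part of these genes in the difference between pools was not tested.

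In each group, cKO sums were then compared with control sums, 2 against 2, to ask whether the cKO genotype goes with a change in these genes. Nupr1 had 0 UMIs in every plexus sum, controls included, so no loss of its RNA could be seen in that group. In control arterial sums Nupr1 was at 4.03 and 12.5 CPM. No gene of the 10 passed the edgeR test in any of 6 groups, nor did any at an unadjusted p under 0.05, nor with DESeq2. Of all genes tested, 0% were called in arterial, plexus, progenitor, myeloid and macrophage cells, and 0.0116% in EHT cells, which is Nupr1 alone (-4.66, SE 0.54, adjusted p = 0.0012). Unadjusted p-values under 0.05 were found for 124 genes in arterial, 224 in plexus, 70 in EHT, 150 in progenitor, 46 in myeloid and 67 in macrophage cells, and DESeq2 called 0, 0, 2, 1, 3 and 1 of all genes.

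The log2 fold changes of the 10 genes, cKO minus control, were between -0.16 and 0.11 in arterial cells, -0.33 and 0.15 in EHT cells, -0.07 and 0.27 in progenitors, -0.12 and 0.35 in myeloid cells and -0.27 and 0.26 in macrophages. Plexus cells had the widest range, from -0.85 (SE 0.69) for Hspa1b to 0.50 (SE 0.55) for Hspa1a, at 13 to 69 UMIs per sum for Hspa1b. SEs reached 1.52 for Hspa1b in EHT cells, more than any difference found for any of the 10 genes.

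With the replicate as a block, which takes up the difference between pools, SEs were at most 0.69 and again none of the 10 genes passed. All genes called then numbered 9 in arterial, 28 in plexus, 11 in EHT, 34 in progenitor, 3 in myeloid and 10 in macrophage cells. The smallest adjusted p of the 10 genes was 0.320, for Hsp90aa1 in macrophages (0.23, SE 0.05). In macrophages, 7 of the 10 were higher and Hspb1 lower at an unadjusted p under 0.05, as against 4.32% of all genes in either direction. The count was 0 in arterial cells, 2 higher in plexus cells, 2 lower in EHT cells, and 1 higher each in progenitors and myeloid cells. Of all genes, 5.34%, 8.91%, 3.91%, 5.9% and 3.1% had such a p in these groups. Many of the 10 genes went together over the sums (r = 0.988 for Hspd1 and Hspe1), so the 7 cannot be counted as separate results. In EHT cells, Hspa1a was lower in cKO than in control in both replicates, at 688 against 873 and 2314 against 2894 CPM (blocked log2 fold change -0.34, SE 0.10, adjusted p = 0.517). In myeloid cells it was higher in cKO in both replicates, at 1156 against 751 and 1961 against 1633 (0.42, SE 0.11, adjusted p = 0.999). Blocked values were 0.53 (SE 0.22, adjusted p = 0.453) in plexus cells and 0.33 (SE 0.12, adjusted p = 1.00) in macrophages, and none passed.

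**Figure D5:**
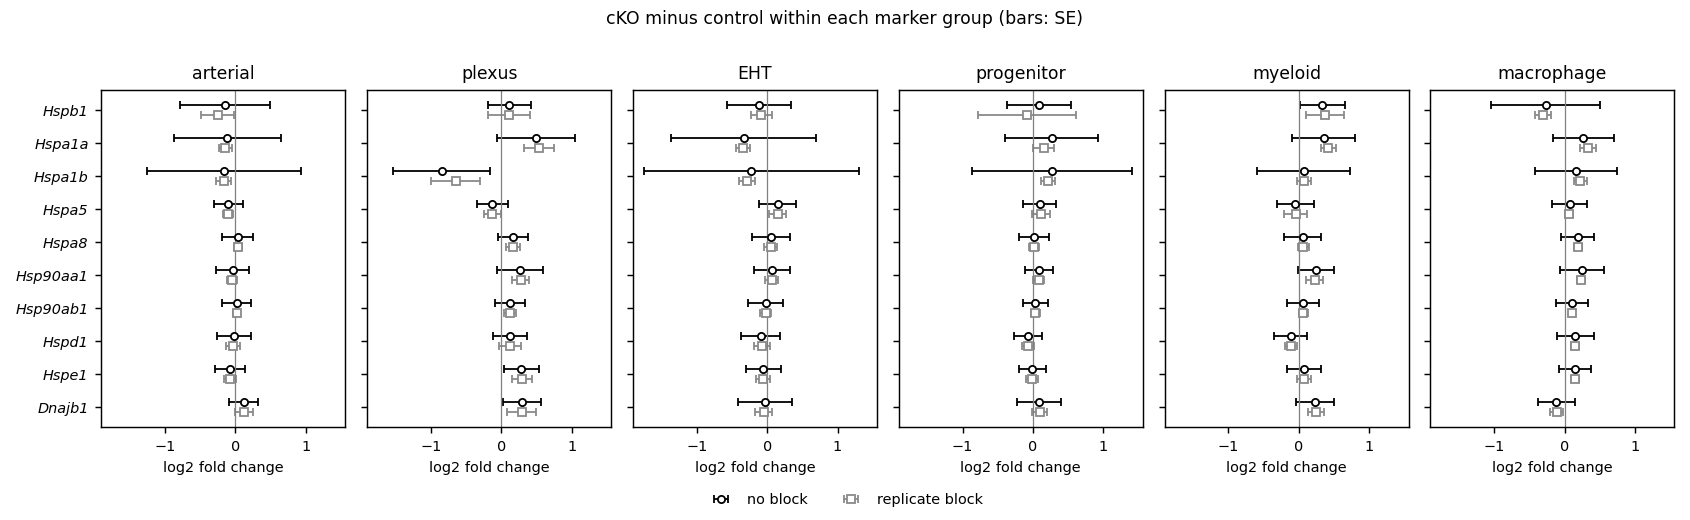
Log2 fold change of cKO minus control for the 10 genes in 6 groups, with bars for the SE; black circles are the comparison without a block and grey squares that with the replicate block. Without the block, the points lie between -0.85 (Hspa1b) and 0.50 (Hspa1a), both in plexus cells. The bars of Hspa1a and Hspa1b shrink with the block, in EHT cells from 1.03 to 0.10 for Hspa1a.

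In 9 of 60 sets, each of 1 gene in 1 group, the cKO sums did not overlap with the control sums. Of all genes tested, this was the case for 21.6% in arterial, 29.8% in plexus, 20.8% in EHT, 22.2% in progenitor, 15.9% in myeloid and 19.3% in macrophage cells, so the 9 sets, 15% of 60, are no more than the background. Hspa5 was higher in both cKO sums of EHT cells and lower in both of arterial and of plexus cells, Dnajb1 was higher in cKO in arterial, plexus and myeloid cells, Hspa8 in plexus cells and macrophages, and Hsp90ab1 in progenitors. None of these differences passed the test. The cKO effect in EHT cells minus that in arterial cells was tested as an interaction and none of the 10 genes passed, with 0% of all genes called.

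To place the 10 genes among other chaperones, 93 further genes were listed by compartment, of which 87 were tested between groups. From arterial to EHT cells, 39 were higher and 18 lower, where 22.9% of all genes were higher and 20.2% lower. The lower count of the whole list is near that share. The chaperonin CCT and its helper prefoldin, which fold actin and tubulin, had 11 of 14 genes higher and none lower. Partners of cytosolic Hsp70 had 12 of 20 higher and 1 lower, those of Hsp90 7 of 12 and 1, and mitochondrial chaperones 7 of 12 and 0. The endoplasmic reticulum list went the other way, as Hspa5 did, with none of 19 higher and 14 lower. The medians were 0.57 for CCT and prefoldin, 0.56 for mitochondria and -0.55 for the endoplasmic reticulum, beside 0.04 for all genes.

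Hsph1, an exchange factor of Hsp70, had the largest rise in that comparison (1.85, SE 0.21, adjusted p = 2.55e-07), with Bag2, another partner, at 1.47 (SE 0.16, adjusted p = 2.45e-08). Cryab, a small heat shock protein, was called lower but was at 1.34, 5.35, 10.98 and 0 CPM in the arterial sums and had 1 UMI in all EHT sums. From EHT cells to progenitors, Bag3 was higher (1.30, SE 0.21) and Serpinh1, the collagen chaperone, lower (-1.36, SE 0.26). Serpinh1 was at 597 to 834 CPM in arterial cells, 843 to 1255 in plexus cells and 13.1 to 34.9 in myeloid cells.

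In macrophages against progenitors, 16 of the 19 endoplasmic reticulum genes were higher and 2 lower, and in megakaryocytes 16 and 1, in myeloid cells 13 and 3. Of all genes, 23.8% were higher and 29.6% lower in macrophages, 22.6% and 29.5% in megakaryocytes, and 14.3% and 19.3% in myeloid cells. Sdf2l1, a partner of Hspa5, was 2.68 higher on the log2 scale in macrophages (SE 0.22), 2.72 in megakaryocytes (SE 0.24) and 1.96 in myeloid cells (SE 0.22), and Xbp1, a transcription factor of the unfolded protein response, was 1.92 higher in macrophages (SE 0.14). Calr, the lectin chaperone calreticulin, was 1.18 higher in myeloid cells (SE 0.10). CCT and prefoldin had none higher and 7 of 14 lower in macrophages. In megakaryocytes, Dnajb2 was at 36.9 and 33.4 CPM, against 1.95 to 7.84 in progenitors. Between the endothelial groups, 8 of the 87 were higher in plexus cells and 8 lower, where 8.62% of all genes were higher and 6.24% lower. Bag3 (1.02, SE 0.24) and Fkbp5 (-0.94, SE 0.23) were among the 87. None of the 80 to 88 genes of this list that could be tested passed between genotypes in any group.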

How the data were processed

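The authors mapped reads with Cell Ranger (5.0.1 and mm10 in the submitters' processing notes), kept cells with a single hashtag (HTODemux) and deposited unnormalized UMI counts for every gene in each cell, with the hashtag label. Both genotypes of a replicate shared a pool. Of the deposited cells, 101 did not meet the study's limits (over 1800 genes, over 6000 UMIs, under 5% mitochondrial reads), all of replicate 1, and they were kept. No doublet caller was run beyond the authors' choice of singlets.

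Here, counts were summed per group and library (at least 10 cells) and fitted with edgeR 4.0.16 in R 4.3.3 (filterByExpr, TMM, robust quasi-likelihood, Benjamini-Hochberg). A cell that met several gates went to the first of macrophage, megakaryocyte, myeloid, progenitor, EHT, plexus and arterial. Comparisons of groups had the library as a block over 26 sums. Those of genotypes had no block; the study tested single cells with the Wilcoxon rank-sum test. The pools pair the replicate numbers, and paired sums deviated together from their group means (Pearson r across genes 0.309 to 0.477, genes not being independent replicates). Alternatives were DESeq2 1.42.0, RLE, no low-count filter, marker sums of 0.5 or 2, other gate orders, the stated limits, thinning, other blocks, control cells alone and leaving out each library. The procedure was tested on simulated counts.

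The 10 genes, the lists and the tests were chosen with earlier results of these data known. Besides the 10 genes and Nupr1, the text names of the wider chaperone list at most the 3 called genes with the largest change per comparison, and for each of the 10 genes the 3 most alike. Promoters were taken from RefSeq, and coordinates from GENCODE M21.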

Additional observations from a re-analysis of the deposited data

Results flagged for a closer look

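Hsp90aa1 in myeloid cells was at 3696 CPM in cKO replicate 1, while the other 3 sums were at 2495 to 2650. The gap to the nearest was 0.871 of the range, above Dixon's 95% critical value for 4 sums. This was the only such value among 60 sets of 4 (10 genes in 6 groups), where chance gives about 1 in 20. The sum came from 23 cells.

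Hspa5 had both cKO sums above both control sums in EHT cells (526 and 505 against 469 and 455 CPM) and both below in arterial cells (796 and 806 against 823 and 914). The difference of these effects was 0.25 on the log2 scale (SE 0.13, unadjusted p = 0.0781, adjusted p = 1 in the edgeR interaction test) and did not pass.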

How the results depend on the processing

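Of the results between groups, 931 kept their direction and side of the threshold under the alternatives, 58 lost a call, 22 gained one, 38 changed in size and 1 reversed (Hspa5, blood minus endothelial, -0.030 with thinned cells). Of those between genotypes, 736 kept theirs, 39 changed in size and 2 gained a call, and of the interaction 118 and 12 did the first and second. All 10 EHT minus arterial calls held. Of 4 genes called from EHT to progenitor, 1 remained called with a marker sum of 2, with cells of several gates left out or without the library block, 0 with control cells alone, and 1 to 4 without single libraries. Of 2 called in plexus, 1 was called with a marker sum of 0.5 and 0 with cells of several gates left out or without the block. For myeloid minus progenitor (2), DESeq2, RLE, no low-count filter and the stated limits gave 4, a marker sum of 0.5, no block and control cells alone gave 1, and EHT placed before progenitor and thinning gave 0. Leaving out single libraries gave 1 to 5, with 5 without cKO replicate 1 and 1 without cKO replicate 2. For macrophages (8) it gave 5 to 9, with 5 without cKO replicate 2. For megakaryocytes (4), a marker sum of 0.5 and control cells alone gave 2.

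Between genotypes, the replicate block called 0 of the 10 genes in each of 6 groups. Without single libraries the count was 0 to 1 in arterial cells and 0 to 1 in macrophages: without cKO replicate 2, Hspb1 was called lower in both (-1.75 and -1.91). A lone sum is there assumed to vary like the others. With a marker sum of 2, several gates left out or EHT before progenitor, some groups had too few cells for this comparison. The cause of these changes was not tested. At 13 to 69 UMIs per sum, counting limits the precision of Hspa1b in plexus cells.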

Other observations

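The 281 cells that met no gate gave 45, 77, 83 and 76 cells in the 4 libraries. Hspa1a was at 604, 1329, 284 and 1485 CPM in them and Hspb1 at 103, 251, 123 and 187, with Hspa1a again higher in replicate 2. Hspa5 was at 667, 644, 725 and 674. These cells were of mixed kind: Cdh5, the endothelial adhesion gene, was at 121 to 378 CPM, and Actc1, a muscle actin, at 5.37 to 267, which names no cell type for them.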
